A study of Homo sapiens with 6 samples.

Results

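The antiviral response to RNA and interferon was followed in human cells that stably carry a foreign RNA construct, through the genes IFIH1, IFIT5, ISG15, IFITM1, BST2 and CXCL10, 6 of 14884 gene symbols named in the table. They were chosen by name, with the differences between the groups in this table in view, and the row of each was selected on its mean expression, so their levels and differences are given here as a description and without a test. Each of the 6 symbols had 1 row in the table, so the choice of the brightest row left nothing out. The cells were HEK293, an embryonic kidney line, in the Flp-In T-REx form, where a construct is placed at a single prepared site of the genome. One group stably overexpressed TDNC1 (3 arrays) and the other a random control RNA (3 arrays). Both were grown in high-glucose medium with serum, glutamine and antibiotics, and both were kept in blasticidin, with hygromycin taking the place of Zeocin after transfection. Stable colonies were pooled, so no array stands for a single clone. The titles call the 3 replicates of each group biological. The labels do not say what TDNC1 is, whether the T-REx promoter was switched on by its inducer, or whether the replicates were separate cultures. The SDs below therefore measure the spread between these samples only. Each SE comes from the limma fit, which draws the variance of a gene towards a value shared by all rows. An SE can thus be larger or smaller than the SDs of its gene imply.

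Cells recognise double-stranded RNA in the cytosol through helicases such as MDA5, the product of IFIH1, and RIG-I. These signal through the adaptor MAVS to the kinases and transcription factors that switch on interferon genes and, with NF-kB, chemokines such as CXCL10. Secreted interferon then acts through its receptors and a transcription factor complex with IRF9, which binds the interferon-stimulated response element in the promoters of effector genes such as ISG15, the IFIT and IFITM genes and BST2. The comparison asks whether these genes differ between cells that express TDNC1 and cells that express a random RNA. Both groups express an RNA and no array is free of it, so a response common to both would not show.

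The promoters are shown first because this element is a feature of the response from which the 6 genes were picked by name. Its presence in them does not depend on the arrays. RefSeq windows of 300 bases, from 250 before to 50 after the annotated start, were found for all 6 members in GRCh38.p14. The element's core was searched as GAAANNGAAA on both strands, and the NF-kB site as GGGANTTCC on both strands. Each stretch below reads 5′ to 3′ on the gene's own strand, with matches in capitals and 15 bases kept on either side of the outermost matches.
IFIH1: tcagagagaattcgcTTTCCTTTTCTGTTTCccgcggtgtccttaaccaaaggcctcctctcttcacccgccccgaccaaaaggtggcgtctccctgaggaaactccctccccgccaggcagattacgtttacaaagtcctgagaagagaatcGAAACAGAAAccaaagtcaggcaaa
IFIT5: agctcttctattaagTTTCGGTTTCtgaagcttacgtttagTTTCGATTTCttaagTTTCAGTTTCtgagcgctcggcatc
ISG15: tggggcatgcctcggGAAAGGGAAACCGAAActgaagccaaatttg
IFITM1: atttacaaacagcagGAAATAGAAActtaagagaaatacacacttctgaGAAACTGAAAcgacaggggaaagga
BST2: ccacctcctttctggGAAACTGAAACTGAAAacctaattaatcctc
CXCL10: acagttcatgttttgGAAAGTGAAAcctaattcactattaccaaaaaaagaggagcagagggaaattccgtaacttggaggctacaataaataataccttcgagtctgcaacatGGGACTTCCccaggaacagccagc

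The stretches lie at chr2:162318681-162318858 (minus strand) for IFIH1, chr10:89414508-89414588 (plus) for IFIT5, chr1:1013369-1013414 (plus) for ISG15, chr11:313985-314058 (plus) for IFITM1, chr19:17405730-17405775 (minus) for BST2 and chr4:76023596-76023733 (minus) for CXCL10. All 6 windows held the response element core, which 3.57% of the 35116 windows in the RefSeq table do. At least 2 matches were found in 5 of the 6, against 0.259% of all windows. IFIH1 and IFIT5 had 3 matches each, ISG15, IFITM1 and BST2 had 2, and CXCL10 had 1. The matches of IFIT5 begin 45, 19 and 4 bases before its start, all in reverse orientation. Those of ISG15 and of BST2 overlap each other, as do the IFIH1 matches that begin 159 and 153 bases before its start. Overlapping matches were counted as separate in the members and in all windows. CXCL10 was the 1 member with a match of GGGANTTCC, 122 bases before its start, a match that 1.85% of windows have. This depends on the letters chosen. A looser form, GGGNNNNNCC on both strands, was tried first. It was found in 4 members (IFIH1, ISG15, BST2 and CXCL10) and in 58.7% of windows, and GGGANTTCC was then taken. The form taken is 1 letter shorter, so its matches are not a subset of the looser ones. In the CXCL10 stretch the lower-case gggaaattcc fits the looser form only, so the capitals do not mark every possible NF-kB site. A match is a string of letters and not a measured binding site.

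IFIH1 encodes the sensor MDA5, which binds long double-stranded RNA. In TDNC1 replicates 1 to 3 its log2 expression was 5.91, 5.90 and 5.84, against 5.42, 5.52 and 5.53 in control replicates 1 to 3. All 3 TDNC1 arrays thus lay above all 3 controls, by a gap of 0.31, while neither group spread by more than 0.11. The means were 5.88 ± 0.03 (SD, n = 3) and 5.49 ± 0.06 (SD, n = 3), a difference of 0.39 (SE 0.09) or 1.31-fold. It was 0.355 to 0.41 whichever single array was left out.

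IFIT5 is the effector of the IFIT family that binds RNA ends with exposed phosphates. Its log2 expression was 7.92, 7.79 and 7.36 in TDNC1, against control values of 7.50, 7.47 and 7.51. Replicates 1 and 2 of TDNC1 lay above every control, whereas replicate 3 lay below every control. The difference of means, 0.20 (SE 0.15), therefore rests on which TDNC1 arrays are used: it was 0.36 without TDNC1 replicate 3 and 0.08 without TDNC1 replicate 1. The control arrays differed by at most 0.04.

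ISG15, a ubiquitin-like protein that is attached to other proteins and is among the most inducible targets of interferon, had nearly equal means. It stood at 7.14, 7.27 and 7.16 in TDNC1, against control values of 7.39, 7.17 and 7.08, so that the groups overlapped. The difference was -0.02 (SE 0.11). Its sign turned in 3 of 13 alternative settings, and it ran from -0.09 to 0.07 over the arrays left out in turn.

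IFITM1 encodes a membrane protein that blocks the entry of viruses. Its log2 expression was 7.74, 8.03 and 7.75 in TDNC1, against control values of 7.07, 6.95 and 7.60. The groups did not overlap, yet control replicate 3 came within 0.14 of the lowest TDNC1 array and lay 0.59 above the mean of the other controls. The means were 7.84 ± 0.17 (SD, n = 3) and 7.21 ± 0.34 (SD, n = 3), a difference of 0.63 (SE 0.18), or 1.55-fold. Without control replicate 3 it was 0.83.

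BST2, or tetherin, holds budding viruses at the cell surface, and its difference was the widest of the 6. Its log2 expression was 5.71, 5.90 and 4.81 in TDNC1, against control values of 4.21, 4.17 and 4.96. The first 2 TDNC1 arrays were high and the first 2 controls low, while the arrays numbered 3 met in the middle, with the control above TDNC1. The means were 5.47 ± 0.58 (SD, n = 3) and 4.45 ± 0.45 (SD, n = 3), a difference of 1.03 (SE 0.33) or 2.04-fold. It was 1.36 without TDNC1 replicate 3, 1.29 without control replicate 3 and 1.62 without both.

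CXCL10, a chemokine that draws T cells, went the other way. Its log2 expression was 3.04, 3.11 and 3.03 in TDNC1, against control values of 3.45, 3.39 and 3.53. Every TDNC1 array lay below every control, by a gap of 0.28. The means were 3.06 ± 0.04 (SD, n = 3) and 3.46 ± 0.07 (SD, n = 3), a difference of -0.40 (SE 0.09). These values are dim: the mean over the 6 arrays lies under the lowest of the arrays' lower quartiles, 3.77, where array values flatten, so little can be read from their size.

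**Figure D1:**
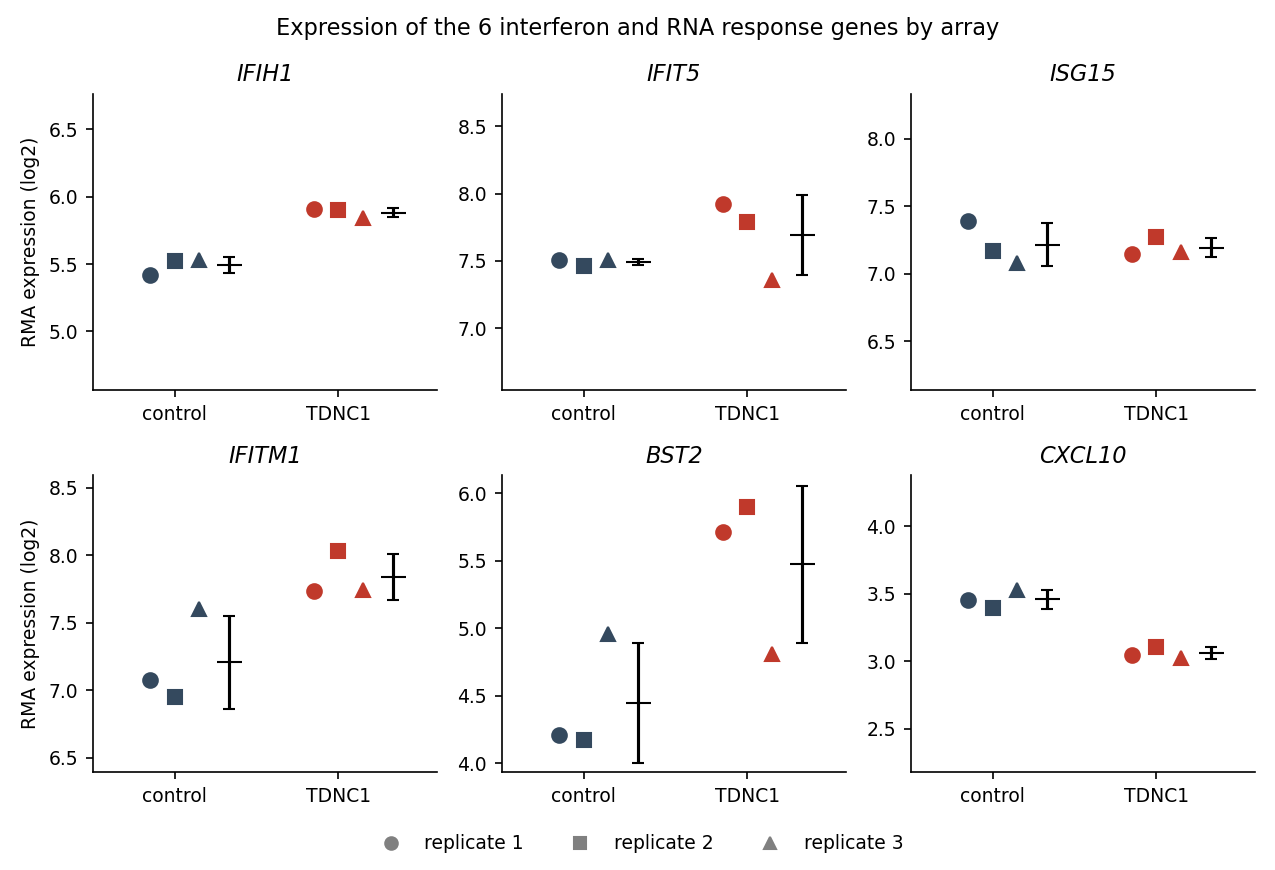
RMA expression on the log2 scale (vertical axes, each spanning the same width) of the 6 genes in 3 control and 3 TDNC1 arrays. Symbols mark the replicate number, and the bar beside each group is its mean ± SD (n = 3). IFIH1, IFITM1 and CXCL10 show no overlap between groups, while BST2 spreads by 1.09 within TDNC1.

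Of the 6 members, 2 were higher without overlap between the groups (IFIH1 and IFITM1), 1 was lower (CXCL10) and 3 overlapped. Over all named symbols, 8.95% were higher and 6.36% lower without overlap, and nothing is read from the members' count since this contrast chose them.

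The replicate pattern of the members differed among them. Across the 6 arrays the Pearson correlation was 0.91 between IFITM1 and BST2 and 0.81 between IFIT5 and BST2, against 0.01 between IFIT5 and ISG15. IFIH1 and CXCL10 correlated at -0.94. These values describe 6 arrays that share their group labels, so a step between the groups alone gives a high value. TDNC1 replicate 3 was unlike its group over the whole table, with a median absolute difference of 0.188 and 0.177 from the other TDNC1 arrays against 0.136 from control replicate 3. Control replicate 3 also stood apart from its own group, by 0.162 and 0.16 from the other controls, which differed by 0.136 from each other. TDNC1 replicate 3 was the lowest of its group for BST2, IFIT5, IFIH1 and CXCL10, but not for ISG15 and IFITM1. The 3 TDNC1 arrays spread by 1.09 for BST2 and 0.56 for IFIT5, against 0.06 for IFIH1 and 0.08 for CXCL10. The part of these arrays' positions in the results was not tested beyond leaving them out.

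**Figure D2:**
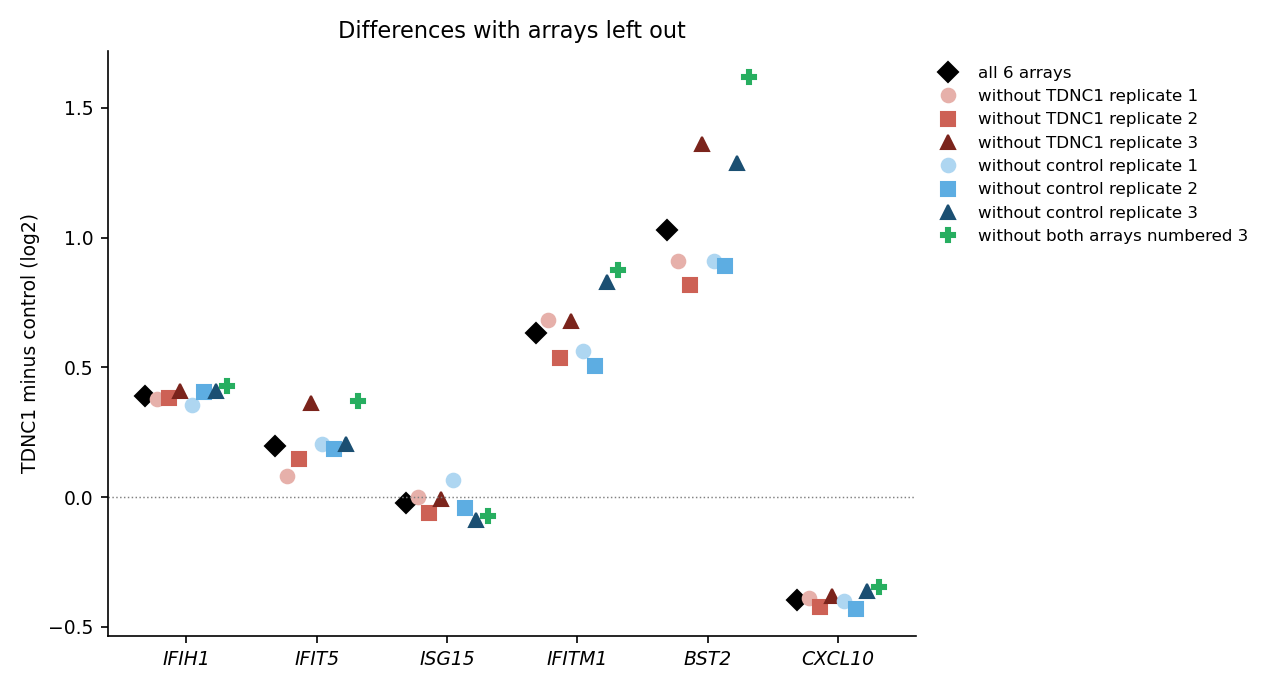
Difference of means (TDNC1 minus control, log2, vertical axis) for each gene with all 6 arrays (black diamonds), with each array left out in turn and with both arrays numbered 3 left out. IFIH1 and CXCL10 stay within narrow bands, IFIT5 ranges from 0.08 to 0.37, ISG15 crosses 0 and BST2 reaches 1.62.

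The genes with the most similar profile over the 6 arrays were sought among 4024 other genes with a range of at least 0.5 on the log2 scale. For IFIH1 they were ZNF250 (Pearson r = 0.998) and LOC646736 (0.984), the long noncoding RNA that is far higher in TDNC1. It is the 1 row with an adjusted p under 0.05 in limma (Benjamini-Hochberg), or 0.00187% of the 53617 rows, where 7.7% had an unadjusted p under 0.05. LOC646736 stood at 9.71, 9.85 and 9.65 in TDNC1, against control values of 3.56, 3.56 and 3.90. For IFIT5 they were BLTP3A (0.998) and TFAP4 (0.991), both low in TDNC1 replicate 3 as well. For BST2 they were TRIP10 (0.998) and MAPK4 (0.994), and for IFITM1 PTK7 and SUSD4 (0.984 and 0.983). For CXCL10 they were VSTM5 (0.979) and MYMK (0.971), and for ISG15 ADCY10 (0.983) and MAP1LC3A (0.968). None of these 12 genes is in the pathway lists. A value over 0.9 was reached by 307 of the candidates for BST2 and by 15 for CXCL10.

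Each effector was then set beside its own family. The other IFIT genes, which form a cluster with IFIT5 on chromosome 10, did not share its profile. IFIT1, the best-known interferon-induced RNA binder, stood at 3.72, 3.74 and 4.16 in TDNC1, against control values of 3.68, 3.42 and 3.41, a difference of 0.37 (SE 0.15) that was 0.23 without TDNC1 replicate 3. Its highest array was the one in which IFIT5 was lowest. IFIT1B had a difference of -0.30 (SE 0.15), IFIT2 of -0.14 (SE 0.12) and IFIT3 of -0.19 (SE 0.17). The sign of IFIT3 turned without control replicate 3. IFIT1, IFIT1B and IFIT3 were dim rows by the same measure as CXCL10. In limma 1 of these 4 had an unadjusted p under 0.05 (IFIT1, 0.0418) and none was called.

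IFITM1, IFITM2, IFITM3 and IFITM5 lie close together on chromosome 11, with IFITM10 elsewhere on that chromosome, and the family diverged. IFITM2, the neighbour of IFITM1 and likewise a restrictor of virus entry, stood at 8.18, 8.16 and 9.20 in TDNC1, against control values of 8.97, 8.85 and 9.27. TDNC1 replicates 1 and 2 were thus the lowest of the 6 arrays for IFITM2 and among the highest for IFITM1. The difference was -0.52 (SE 0.29), and -0.86 without TDNC1 replicate 3 and -0.34 without TDNC1 replicate 2. IFITM3 had a difference of -0.25 (SE 0.15), with control replicate 3 the highest at 7.19, and -0.11 without that array. IFITM5, a bone protein, had 0.13 (SE 0.14) and IFITM10 0.02 (SE 0.08). In limma 0 of these 4 had an unadjusted p under 0.05. IFITM1, IFITM2 and IFITM3 are closely related in sequence, and how far their probes tell them apart was not tested.

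**Figure D3:**
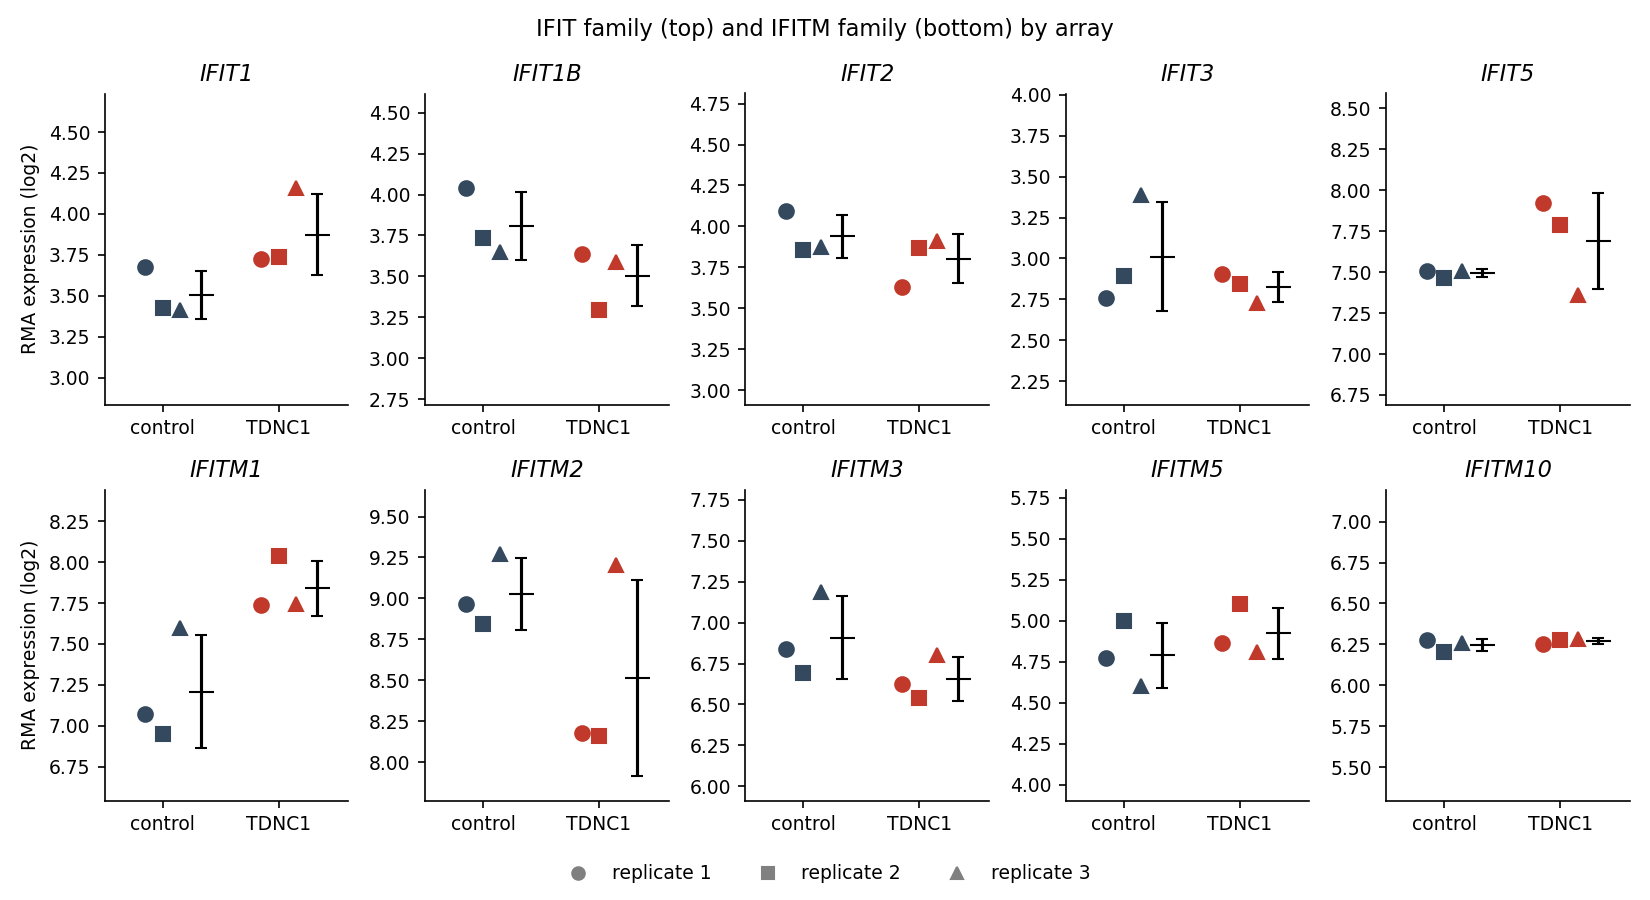
RMA expression (log2) of the 5 IFIT genes (top) and 5 IFITM genes (bottom) by array, with mean ± SD (n = 3) beside each group; all panels span the same width of the log2 scale. IFIT5 and IFIT1 have opposite positions of TDNC1 replicate 3, and IFITM1 and IFITM2 have opposite positions of TDNC1 replicates 1 and 2.

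The enzymes that attach ISG15 and take it off had a median difference of -0.01 over 6 measured genes. Of these 2 were positive, and none had an unadjusted p under 0.05 in limma. UBE2L6, the conjugating enzyme, was the exception in size, at 6.64, 6.43 and 5.78 in TDNC1, against control values of 6.06, 5.28 and 5.85, a difference of 0.55 (SE 0.27) that was 0.33 without control replicate 2. As for BST2, TDNC1 replicates 1 and 2 were its highest arrays and replicate 3 lay among the controls. The activating enzyme UBA7 had a difference of -0.04 (SE 0.10) and the ligase HERC5 0.09 (SE 0.09). HERC6 had -0.01 and the ligase TRIM25 -0.17. USP18, which removes ISG15 and damps interferon signalling, had a mean of 8.64 in both groups.

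Among the RNA sensors and their adaptors, 20 of 28 listed genes were measured, and the median difference over the 19 besides IFIH1 was 0.03. Unadjusted p under 0.05 in limma was reached by 1 higher gene, DDX60, and 1 lower, TICAM1. DDX60 encodes a helicase that takes part in RIG-I signalling, and it stood at 5.66, 5.48 and 5.16 in TDNC1, against control values of 4.78, 4.76 and 4.75. The groups were separate by 0.37 and the difference was 0.67 (SE 0.14, limma unadjusted p = 0.00172, adjusted p = 0.631), larger than that of IFIH1. TICAM1, the adaptor of TLR3, had -0.28 (SE 0.10). DHX58, the third RIG-I-like receptor, had 0.21 (SE 0.10) and the helicase DHX9 -0.19 (SE 0.10). RIGI had 0.09, MAVS -0.04, TLR3 0.06 and the kinase EIF2AK2, which halts translation on double-stranded RNA, 0.13.

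Between sensor and target, 17 kinases and transcription factors were measured, with a median of 0.01. IRF8 was higher at an unadjusted p of 0.0424 in limma, with a difference of 0.40 (SE 0.16) that was 0.23 without TDNC1 replicate 1. IRF5 had 0.20 (SE 0.09), NFKB1 -0.18 (SE 0.10) and IRF7, which amplifies interferon production, -0.15 (SE 0.09). IRF9, the DNA-binding part of the interferon complex, had -0.15 and IRF3 -0.16, while the kinase JAK1 had 0.18 (SE 0.10). The groups did not overlap in 8 of the 17 (47.1%), 4 higher and 4 lower, beside 15.3% of all named symbols and 19.1% of the 110 pathway genes counted further on. The gaps were small, from 0.003 (IRF9) to 0.08 (IRF5), and IRF8 alone of the 8 had an unadjusted p under 0.05 in limma. In the other pathway lists this share ran from 0% (the IFITM family among others) to 50% (IFIT family, 4 genes), with 31.6% of the sensors and 10.3% of the other antiviral effectors. Of 6 listed interferon receptor genes only 2 were measured, both chains of the interferon gamma receptor. IFNGR1 had 0.16 (SE 0.10) and IFNGR2 -0.0007 (SE 0.09). The interferon genes themselves, MX1 and OAS1 to OAS3 were not analysed here.

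Among 29 other antiviral effectors the median was -0.06. Of these 20 lay below 0, beside 7285 of all 14884 named symbols. The 20 include SERTAD1 (-0.39, SE 0.52), which was listed among effectors in error. At an unadjusted p under 0.05 in limma, SLFN5 was higher (0.37, SE 0.15, and 0.23 without TDNC1 replicate 1), and TRIM14, an adaptor of MAVS signalling, and RSAD2, the nucleotide-modifying enzyme viperin, were lower (-0.24 and -0.25). TRIM21, a receptor for antibodies inside the cell, had -0.37 (SE 0.16), and -0.23 without control replicate 3. RSAD2 stood at 4.26, 4.16 and 4.17 in TDNC1, against control values of 4.61, 4.36 and 4.37, apart by 0.10. In the cytokine list CCL4 was higher by 0.31 (SE 0.10) and IL15 by 0.33 (SE 0.13), both with a limma unadjusted p under 0.05, and CCL2 had 0.36 (SE 0.21). IL15 was at 0.53 without both arrays numbered 3, and CCL2 ran from 0.14 without TDNC1 replicate 2 to 0.59 without TDNC1 replicate 1. CXCL9 and CXCL11, which share the receptor of CXCL10 and lie beside it on chromosome 4, had 0.02 (SE 0.13) and -0.13 (SE 0.09). CXCL9 is a dim row, as CXCL10 is, and the sign of its difference turned in 4 of 13 settings.

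No gene of the remaining pathway lists reached an unadjusted p under 0.05 in limma. Among negative regulators (8 measured, median -0.01) NLRX1 had 0.13, TRIM38 0.08, SOCS1 -0.09 and SOCS3 -0.02. The sign of SOCS3 turned in 4 of 13 settings, which were median centring, averaged rows, and the fits without TDNC1 replicate 1 or control replicate 1. For MHC class I and peptide loading (5 measured, median 0.05) ERAP1 had 0.22, ERAP2 0.21, CALR -0.12 and TAPBP -0.16. For double-stranded RNA binding and microRNA processing (5 measured, median 0.01) TARBP2 had -0.19, SON 0.05, DGCR8 -0.06 and ADAD1, a dim row, 0.01.

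Counted together, 110 of 207 listed pathway genes besides the members were measured. In limma 6 of them (DDX60, IRF8, IFIT1, SLFN5, CCL4 and IL15) were higher and 3 (TICAM1, TRIM14 and RSAD2) lower at an unadjusted p under 0.05, and none passed the adjusted threshold. Over all named symbols 4.59% were higher and 2.56% lower at that level, so the 6 and 3 of 110 are near the background. With each array centred on its median the split was 7 higher and 2 lower, beside 5.81% and 1.79% of all symbols. The median difference was -0.01 over the 110 genes and 0.003 over all symbols. The count of 9 moved with single arrays, and the share over all named symbols moved too. Without TDNC1 replicate 3 it was 23 (10 higher, 13 lower), or 20.9%, beside 17.6% of all symbols. It was 4 (3.64%) without TDNC1 replicate 1, beside 3.47%, and 2 (1.82%) without TDNC1 replicate 2 or control replicate 2, beside 3.2% and 3.8%. Without control replicate 1 it was 6 (5.45%) and without control replicate 3 it was 5 (4.55%), beside 3.88% and 7.3%.

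**Figure D4:**
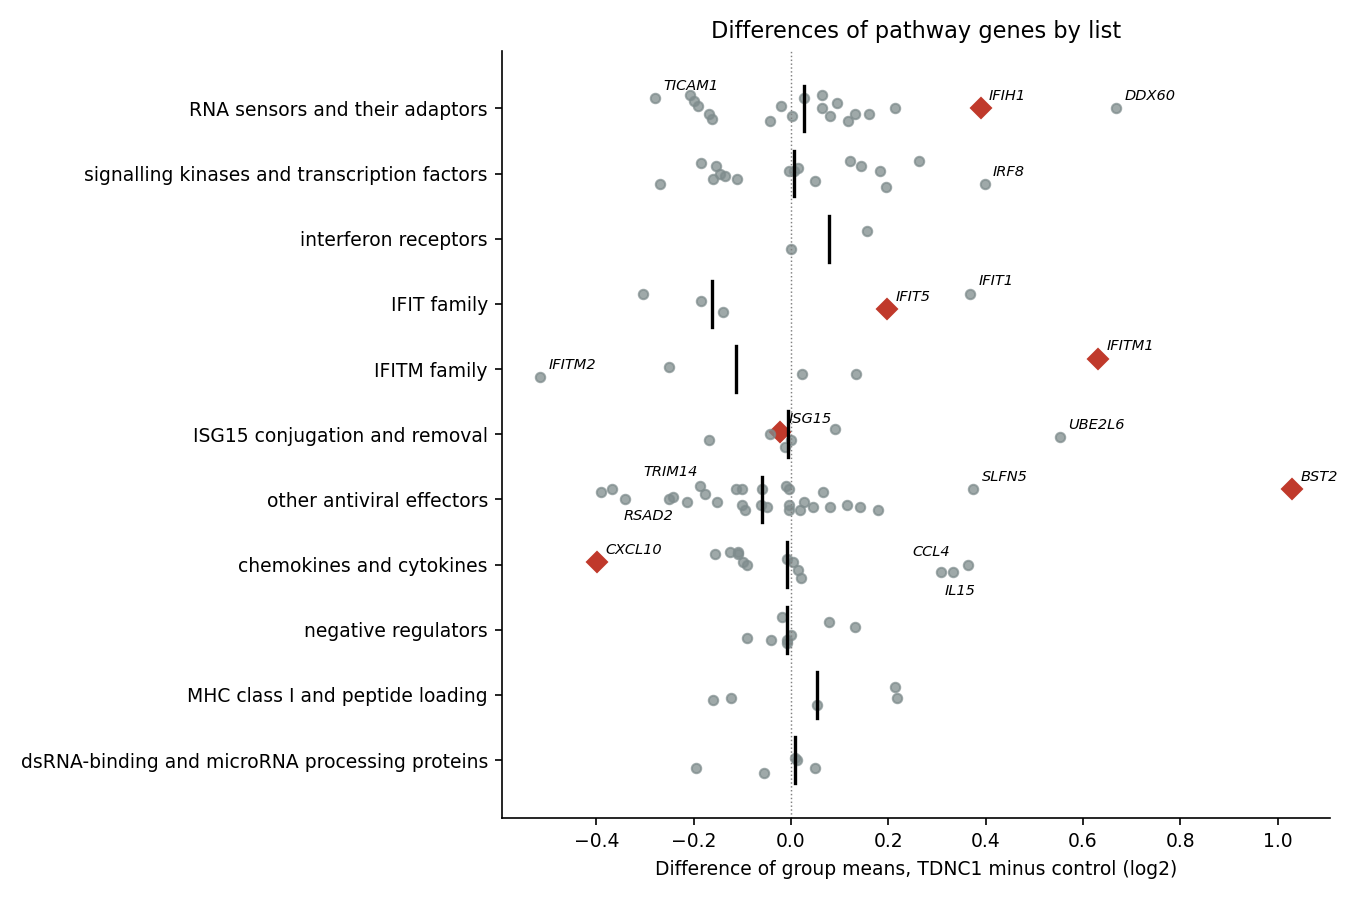
Difference of group means (TDNC1 minus control, log2, horizontal axis) for each measured gene of the pathway lists; red diamonds are the 6 members, grey points the other genes and black bars the median without members. Named grey genes have an unadjusted p under 0.05 in limma or a difference over 0.5 in size. BST2 and DDX60 lie far to the right, while the medians of these lists lie between -0.16 and 0.08.

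The response element gave a way to look beyond chosen names, in a comparison set up after the members' values and their promoter matches were known. Of the named symbols, 10743 besides the members had a RefSeq window, and 34 of them held at least 2 matches of the core, 10 of these from the pathway lists. Their median difference was -0.04, against 0.01 for the 10331 genes with no match. In limma 2 of the 34 were higher at an unadjusted p under 0.05 (DDX60 and IFIT1) and 1 lower (VIPR1), or 5.88% and 2.94%, against 4.69% and 2.35% of genes with no match. VIPR1, a receptor for vasoactive intestinal peptide named after its values were seen, had -0.33 (SE 0.09). Without TDNC1 replicate 3 the counts were 3 higher and 5 lower, or 8.82% and 14.7%, against 11.1% and 7.91% of genes with no match. Over the 6 single arrays left out, 5.88% to 23.5% of the 34 passed, against 2.79% to 19% of genes with no match. The shares differed by most without control replicate 1, at 11.8% (2 higher, 2 lower) against 3.52%, and were 8.82% against 2.89% and 2.79% without TDNC1 replicate 1 or 2. Genes with the element went both ways in each of these fits.

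**Figure D5:**
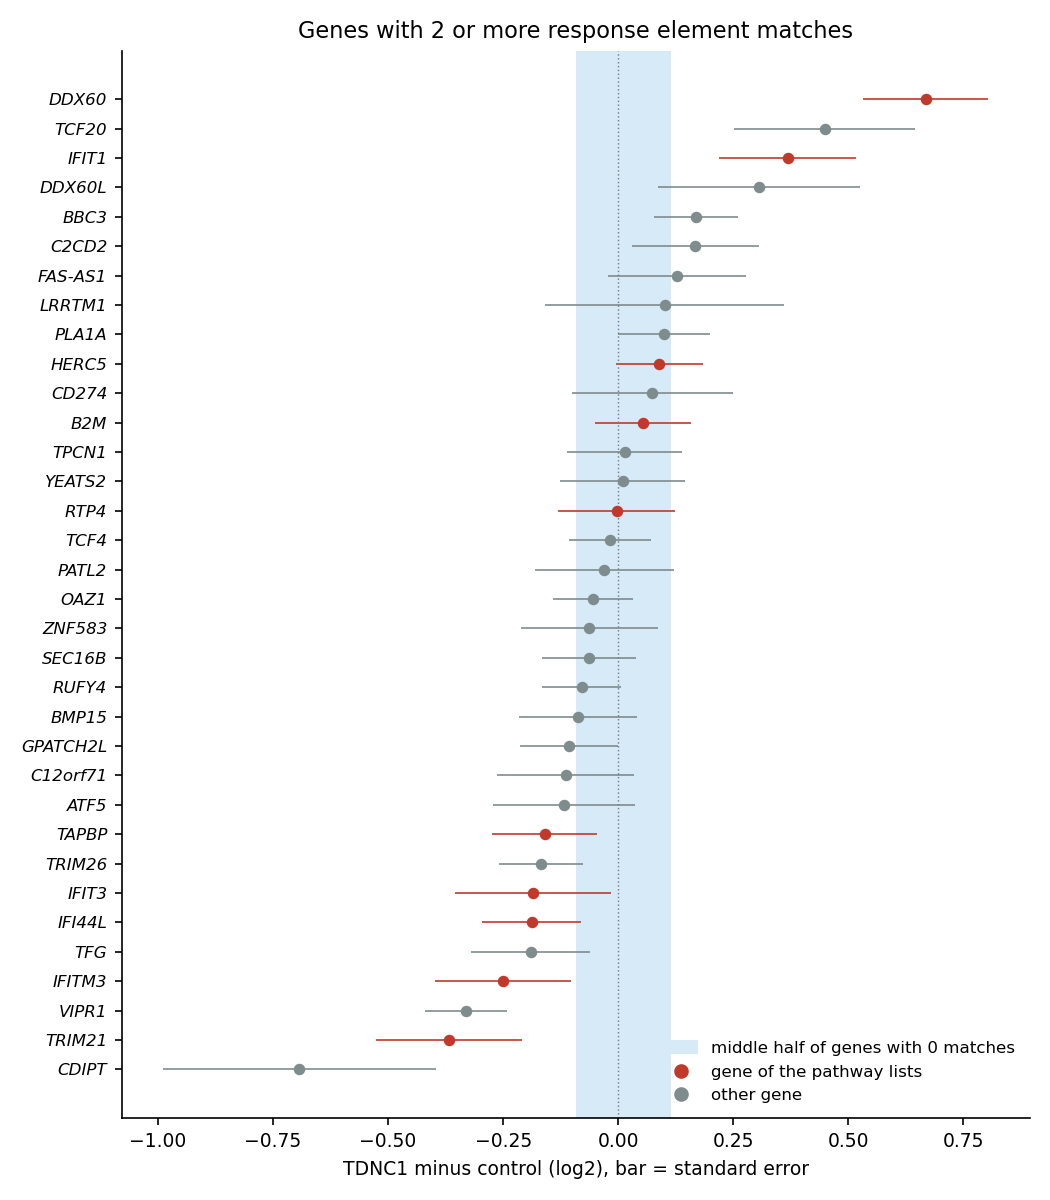
Difference (TDNC1 minus control, log2, horizontal axis) of the 34 genes with at least 2 response element matches, members left out; bars are standard errors and the shaded band spans the middle 50% of genes with no match. DDX60 has the highest difference and CDIPT the lowest, and the genes of the pathway lists (red) fall on both sides of 0.

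Genes beside the members were compared, 2 measured genes on either side in RefSeq order, chosen after the members' values were seen. Of the 24 neighbours, 4 had an unadjusted p under 0.05 in limma, all higher, beside 4.59% of named symbols. These were IFIT1, HES4 near ISG15 (0.29, SE 0.10), and DPP4 and GRB14 on either side of IFIH1, with 0.40 (SE 0.13) and 0.38 (SE 0.12), about the size of IFIH1 itself. In RefSeq order DPP4 was 8 genes and GRB14 15 genes away from IFIH1, so they are not adjacent to it. Both measured genes nearer to IFIH1 had negative differences, GCG of -0.03 (SE 0.12) and FIGN of -0.15 (SE 0.13). Around BST2, PLVAP had 0.04, GTPBP3 -0.11, TMEM221 -0.05 and NXNL1 -0.02.

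As a check of the cells, EPCAM, an epithelial surface protein, stood at 9.69 to 10.04 and VIM at 8.62 to 8.76 in all arrays. Each was the highest measured gene of its list, epithelial for EPCAM and kidney-line for VIM. The 8 measured epithelial markers differed widely in level. The lowest, ESRP1, had a mean of 4.755 in TDNC1 and 4.904 in the control, so EPCAM does not stand for the list. Of 14 blood cell markers, whose cells carry strong interferon programmes, 6 were measured. Their mean level was 5.68 to 5.76 in TDNC1 and 5.67 to 5.73 in the control. This average covers means from 4.34 (LYZ) to 8.28 (CD68) in TDNC1, and from 4.21 to 8.18 for these genes in the control. None of the 6 had an unadjusted p under 0.05 in limma. PTPRC and CD3E are not among the 6. Fibroblast markers (3 of 8 measured) also gave none, while CLDN4 of the epithelial list had 0.26 (SE 0.11) and PAX2 of the kidney-line list 0.41 (SE 0.12), both under 0.05 unadjusted in limma. In such bulk RNA, fewer cells with a transcript and less transcript per cell cannot be told apart. Control genes gave 0.01 (GAPDH, whose sign turned in 2 of 13 settings), 0.14 (HPRT1) and -0.28 (TBP, SE 0.11), so a control gene differed by as much as several list genes.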

How the data were processed

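Trizol-extracted, DNase-treated total RNA was labelled and hybridised to Affymetrix Human Gene 2.0 ST arrays, per the labels. The deposited values are log2 expression, summarised by RMA with Affymetrix Power Tools by the authors (submitters' processing notes; version, annotation and build not given in the sources used here). RMA equalises the arrays' distributions, so a shift of most genes would be removed. Arrays have no read depth, and 3 arrays per group limit the precision.

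Of 53617 rows, 16098 were named through the platform annotation, with symbols updated by gene identifier from the GRCh38.p14 table; the other 37519 are unnamed here. Groups came from sample titles. The contrast of TDNC1 minus control was fitted with lmFit and eBayes (limma 3.58.1, R 4.3.3; two-sided, Benjamini-Hochberg over all rows, threshold 0.05), checked on simulated arrays. A gene is its brightest row. The members and lists were chosen with earlier results of these data known, and no list was tested as a set. The 2 promoter motifs (a further one searched is not reported here), the response element comparison and the neighbouring genes were chosen after the values were seen, and a looser NF-kB pattern was tried before the one used. Named genes are the members, up to 4 genes per list with the smallest p, whole small families, and 2 genes per member by likeness. Others were picked by hand outside this rule, among them RIGI, MAVS, TLR3, EIF2AK2, IRF3, IRF9, JAK1, CXCL9 and some cell markers. SERTAD1, listed among effectors in error, stayed in the counts. The main fit did not pair arrays by replicate number (correlation of deviations for equal numbers 0.036, -0.001 and 0.047). Whether the arrays numbered 3, which lay 0.136 apart by median absolute difference, share an effect was not tested. Alternatives were trend and robust variance, a replicate block, median centring, a filter on dim rows, array weights, averaged rows and arrays left out.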

Additional observations from a re-analysis of the deposited data

How the results depend on the processing

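Over the 13 alternative settings none of the 110 other pathway genes was called. The differences of IFIH1, IFIT5, IFITM1 and BST2 stayed above 0 and that of CXCL10 below 0, but much of this was fixed in advance. Trend and robust variance, the replicate block, the filter on dim rows and averaged rows cannot move the difference of a member they keep, since each has 1 row. The groups of IFIH1, IFITM1 and CXCL10 do not overlap, so leaving arrays out cannot turn their sign. The filter on dim rows removes CXCL10 and gives it no value. The count of rows called was 1 with all arrays and ran from 1 to 23 with single arrays left out, 23 without TDNC1 replicate 3 and 2 without control replicate 3. The count of pathway genes with an unadjusted p under 0.05 in limma was 9 of 110 (beside 7.15% of all named symbols), 2 to 23 with single arrays left out (beside 3.2% to 17.6%), 19 without both arrays numbered 3 (16.2%) and 18 under array weights (14.5%). With the replicate block it was 7 (6.43%), and 1 row was called. BST2 had a difference of 1.62 without both arrays numbered 3. Genes with at least 2 response element matches, a comparison and alternatives both chosen after seeing the data, gave a count of 3, of 2 to 8 with single arrays left out and of 6 without both arrays numbered 3. The cause of these moves was not tested. Of the 132 list genes, 79 kept the sign of their difference in every alternative and 53 did not. Signal over background limits CXCL10 and the 12 dim rows among the other pathway genes, of which IFIT1, IFIT1B, IFIT3, CXCL9 and ADAD1 are given with values.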
